A study of Homo sapiens with 8 samples.

Results

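ID1, ID2, ID3 and ID4 encode the inhibitors of DNA binding, and their transcript levels were followed over all 8 arrays of a study of rapid estradiol responses in SKBR3, a human HER2-amplified breast cancer cell line. The members were all probe sets whose platform annotation gives one of these 4 genes. They were 10 of 54675 probe sets on the array, and 9 of them name an ID gene alone: 1 for ID1, 2 for ID2, 1 for ID3 and 5 for ID4. The tenth is annotated to ID2 together with ID2B. A gene value is the mean of the probe sets that name this gene alone, and the ID genes were 4 of 19775 genes measured in this way. The family was chosen because it stood out in earlier results of these arrays, so its members were chosen by their measured values, on nearly all of the comparisons below, and all values are given as a description, with no test.

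Each condition had 1 array. The arrays were of cells given free estradiol at 1e-06 M, ICI at 1e-05 M together with E2-BSA (estradiol linked to bovine serum albumin, at 1e-06 M), E2-BSA at 1e-06 M with G15 at 1e-05 M, E2-BSA alone at 1e-06 M, G15 alone at 1e-05 M, the carrier BSA at 1e-06 M, ethanol at 0.1% as the vehicle of estradiol, and of untreated cells. All cells, the untreated ones included, first spent 4 h in charcoal-stripped serum (10% of the medium), and RNA was taken 3 h after treatment. All came from a single cell line, and cells given only ICI were not analysed here. G15 is an antagonist of the membrane estrogen receptor GPER, and ICI is named in the labels by these letters only. The deposited values are centred for each probe set. They show how a transcript differs between arrays, but not how abundant it is, so neither the levels of the 4 genes relative to each other nor the cell type markers of the line can be read from them. The values are taken as log2, whose base no source used here states. With 1 array per condition there is no replicate error, and no difference below has a replicate check.

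ID proteins carry a helix-loop-helix domain, through which transcription factors of this class pair, but lack the basic region that touches DNA. They bind the widely expressed E proteins and keep them, and the tissue-specific factors that pair with E proteins, off E-box sequences. Transcription of ID genes is a rapid and classical response to bone morphogenetic proteins (BMPs), carried by the receptor-activated SMAD proteins. In the mouse, Id2 is needed for the growth of the mammary epithelium in pregnancy and Id4 for the growth of mammary ducts.

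The 4 genes lie on different chromosomes: ID1 on chromosome 20, ID2 on 2, ID3 on 1 and ID4 on 6. Because their transcripts moved together over the arrays, the 250 bases before each gene start are shown, as given by RefSeq on GRCh38.p14 for ID1 (chr20:31605039-31605288, plus strand), ID2 (chr2:8681806-8682055, plus strand), ID3 (chr1:23559502-23559751, minus strand) and ID4 (chr6:19837120-19837369, plus strand). They are written 5′ to 3′ along the gene, and capitals mark every match to the motifs listed after them.
ID1: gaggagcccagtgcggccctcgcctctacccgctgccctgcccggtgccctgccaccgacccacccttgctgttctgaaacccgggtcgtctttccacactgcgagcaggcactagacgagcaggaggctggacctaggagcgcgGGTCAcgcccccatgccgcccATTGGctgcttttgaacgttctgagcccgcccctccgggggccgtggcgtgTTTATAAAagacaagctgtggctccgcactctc
ID2: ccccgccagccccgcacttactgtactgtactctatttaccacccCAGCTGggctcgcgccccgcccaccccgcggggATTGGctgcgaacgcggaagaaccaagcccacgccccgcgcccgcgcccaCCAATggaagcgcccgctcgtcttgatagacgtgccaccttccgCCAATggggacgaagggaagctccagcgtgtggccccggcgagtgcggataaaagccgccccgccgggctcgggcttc
ID3: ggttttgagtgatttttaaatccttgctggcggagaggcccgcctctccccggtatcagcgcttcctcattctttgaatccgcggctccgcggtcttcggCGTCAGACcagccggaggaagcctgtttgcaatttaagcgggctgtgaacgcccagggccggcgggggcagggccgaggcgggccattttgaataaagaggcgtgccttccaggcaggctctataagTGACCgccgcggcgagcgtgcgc
ID4: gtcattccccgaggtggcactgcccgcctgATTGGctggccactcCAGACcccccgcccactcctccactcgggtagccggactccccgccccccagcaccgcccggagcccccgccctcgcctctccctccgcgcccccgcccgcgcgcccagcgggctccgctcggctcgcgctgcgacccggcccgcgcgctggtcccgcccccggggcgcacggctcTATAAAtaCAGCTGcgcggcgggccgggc

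The 10 motifs were searched on both strands in these windows and in those of 35116 RefSeq genes. GC bases made up 66% of the ID1 window, 69.2% of ID2, 62% of ID3 and 78.8% of ID4, beside a median of 58% over all windows. The CCAAT box (CCAAT) was present before 3 of the 4 genes, with 3 matches before ID2, 1 before ID1 and 1 before ID4, and in 32.0% of all windows. The TATA box (TATAAA) was found before ID1 and ID4, where its last base lay 26 and 24 bases before the gene start, and in 10.7% of all windows. In ID1 this match overlaps a second one on the other strand. A single arm of the estrogen response element (GGTCA) matched once before ID1 and once before ID3, beside 32.6% of all windows, and the paired element, in which GGTCA and TGACC are separated by 3 free bases, before none of the 4, beside 0.0399% of all. For SMAD proteins, the GC-rich element (GGCGCC) matched before none, beside 16.4% of all windows. The short element (GTCTG) matched once before ID3 and once before ID4, beside 38.0% of all. The E-box (CANNTG) matched once before ID2 and once before ID4, beside 61.8%. The short CREB site (TGACG) matched once before ID3, where it overlaps the short SMAD element, beside 21.2%. The full CREB site (TGACGTCA, 1.65% of all windows) and the EGR1 core (GCGTGGGCG, 0.720%) matched before none. No motif of the 10 was in all 4 windows. Bases farther upstream and inside the genes were not searched, so whether SMAD, CREB or EGR1 sites lie there was not tested.

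The same 3 arrays were lowest in all 4 genes. ID1, the gene mean with the widest spread, stood at -2.02 with estradiol, -1.93 with E2-BSA plus ICI and -1.70 with E2-BSA plus G15, against 0.043 with E2-BSA, 0.00 with G15, 0.17 with BSA, -0.34 with ethanol and 0.0094 in untreated cells. The estradiol array and both combinations were thus far below the other 5 arrays, with 1.36 between the highest of the 3 and the lowest of the 5, which was the ethanol array. ID2 stood at -1.24 with estradiol, -1.22 with E2-BSA plus ICI and -0.58 with E2-BSA plus G15, against 0.0027 with E2-BSA, 0.051 with G15, 0.075 with BSA, -0.019 with ethanol and 0.22 in untreated cells. The same 3 arrays were lowest, but G15 with E2-BSA lay about midway between the other 2 and the remaining 5, to which its gap was 0.56. ID3 stood at -0.72 with estradiol, -0.56 with E2-BSA plus ICI and -0.71 with E2-BSA plus G15, against 0.087 with E2-BSA, 0.079 with G15, 0.18 with BSA, 0.20 with ethanol and 0.00 in untreated cells. Here the 3 low arrays lay close together, and the gap to the others was 0.56. ID4, as the mean of 5 probe sets, stood at -0.70 with estradiol, -0.86 with E2-BSA plus ICI and -0.80 with E2-BSA plus G15, against 0.14 with E2-BSA, 0.11 with G15, 0.064 with BSA, 0.25 with ethanol and 0.13 in untreated cells. It was the only one of the 4 genes with its lowest value on an array other than estradiol, and its gap was 0.77.

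**Figure D1:**
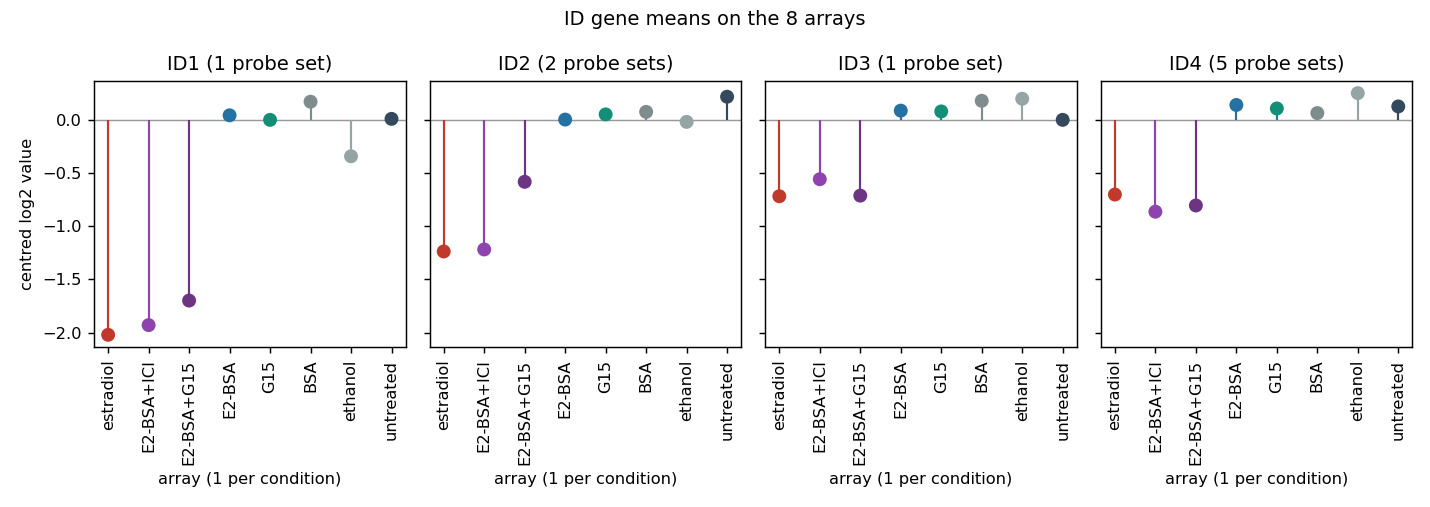
Centred log2 value (y axis) of the 4 ID genes on each of the 8 arrays (x axis, 1 array per condition), as the mean of the probe sets that name the gene alone; vertical lines run to 0. The estradiol, E2-BSA+ICI and E2-BSA+G15 arrays hold the 3 lowest values in each panel, down to -2.02 for ID1.

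That these 3 arrays hold the 3 lowest values was true of all 4 ID genes and of 267 of 19775 genes, which is 1.35%. With a gap of at least 0.5 to the other 5 arrays, a limit chosen after the values were seen, 6 genes were left (0.0303%). They were the 4 ID genes, the homeobox gene HOXC13 (gap 0.61) and SMAD7 (gap 0.52), which encodes an inhibitory SMAD and is itself induced by BMP and TGF-beta. The labels give no batch, so whether these 3 arrays share a handling step was not tested.

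The probe sets of a gene did not all move by the same amount. The pair for ID2 gave -1.19 and -1.28 with estradiol, -1.24 and -1.20 with E2-BSA plus ICI, and -0.69 and -0.48 with E2-BSA plus G15, against 0.17 and 0.26 in untreated cells. Over the 8 arrays they correlated with r = 0.989, so the intermediate place of the G15 combination was present in each. The probe set annotated to ID2 and ID2B ran the same way, at -1.06 with estradiol, -1.11 with E2-BSA plus ICI and -0.77 with E2-BSA plus G15, against 0.077 with E2-BSA, 0.083 with G15, 0.41 with BSA, 0.48 with ethanol and -0.30 in untreated cells. Untreated cells were its lowest array outside the 3, while both other probe sets had their highest value there. A probe set annotated to ID2B alone lay between -0.32 with estradiol and 0.36 with BSA, and the antisense transcript ID2-AS1 between -0.16 and 0.31 over its 2 probe sets, with neither showing the 3 low arrays apart from the rest.

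ID4 was the least uniform gene. Its probe set 209291_at stood at -1.42 with estradiol, -1.75 with E2-BSA plus ICI and -1.57 with E2-BSA plus G15, against -0.032 with E2-BSA, 0.00 with G15, 0.045 with BSA, 0.10 with ethanol and 0.048 in untreated cells. Its values spanned 1.85, beside 2.19 for ID1, with which it correlated at r = 0.972. Probe set 209292_at was lower still with E2-BSA plus ICI, at -1.95, and stood at -0.92 with estradiol and -1.18 with E2-BSA plus G15, against 0.47 with E2-BSA and 0.19 in untreated cells. Its span of 2.56 was the widest of the 10 probe sets. Probe set 209293_x_at had the same 3 arrays lowest with smaller values, -0.27 with estradiol, -0.62 with E2-BSA plus ICI and -0.53 with E2-BSA plus G15, against 0.32 with E2-BSA and 0.27 in untreated cells. The remaining probe sets departed from this. 226933_s_at was low with estradiol at -0.90 and with E2-BSA plus G15 at -0.60, but stood at 0.037 with E2-BSA plus ICI, against -0.024 with E2-BSA, and was highest with G15 alone at 0.57. 229386_at stayed between -0.14 and 0.20 on all 8 arrays. On estradiol minus untreated the ID4 mean of -0.83 thus stands beside -1.46 for 209291_at and -1.11 for 209292_at, and no source used here says which transcript forms the 5 detect.

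**Figure D2:**
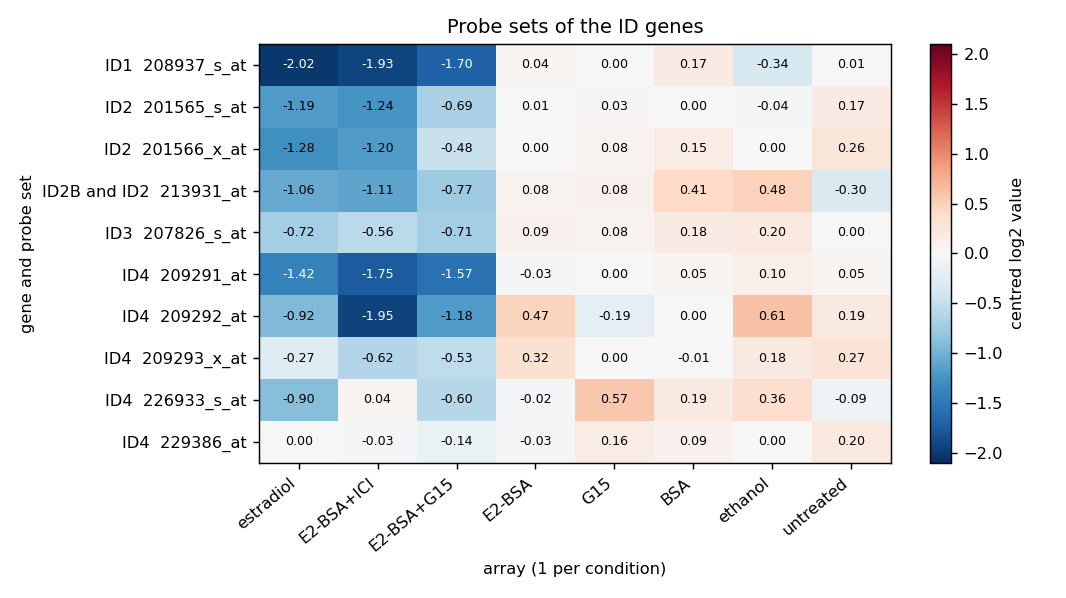
Centred log2 value (colour and number) of each probe set annotated to an ID gene (rows) on each of the 8 arrays (columns, 1 array per condition); blue is below and red above the centre of the probe set. The 3 columns at the left are low in all rows but 229386_at and, for E2-BSA+ICI, 226933_s_at.

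The free estradiol array was set against the arrays of hormone-free cells. On estradiol minus untreated all 4 ID genes were among the 7 lowest of all genes. ID1 was lower by 4.08-fold (-2.03), ID2 by 2.74-fold (-1.45), ID4 by 1.77-fold (-0.83) and ID3 by 1.64-fold (-0.72), and among 19775 genes they ranked 1, 2, 5 and 7 from the lowest. At 2-fold, 2 of the 4 were lower, where 3 genes were in all, or 0.0152% of those measured, and the remaining one was the interferon-induced IFIT1 (-1.25). The contrast was among those for which the family was chosen, so nothing is read from this share. By probe set, 9 of 9 were below 0 and 5 of 9 were at least 2-fold lower, beside 0.011% of all probe sets. Should the base be e, the ID1 fold would be 7.61.

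All 4 ID genes were below 0 with each of the other comparators as well. Estradiol minus BSA gave -2.19 for ID1, -1.31 for ID2, -0.90 for ID3 and -0.77 for ID4, with 2 of 4 past 2-fold beside 0.0253% of all genes. Estradiol minus ethanol gave -1.68, -1.22, -0.92 and -0.95 in the order ID1 to ID4, again with 2 of 4 past 2-fold. The labels used here do not give the ethanol content of the estradiol array. In this comparison the background was 0.865%, since 171 genes were lower, and ID1 ranked only 58 from the lowest. The lowest genes were CCL20 (-7.51), CXCL8 (-7.21), CXCL1 (-6.41), SELE (-5.87) and TNF (-5.02). On ethanol minus untreated, 172 genes were at least 2-fold higher (0.87%). The ethanol array itself differed from untreated by -0.35 for ID1, -0.24 for ID2, 0.20 for ID3 and 0.13 for ID4. BSA minus untreated gave 0.16, -0.14, 0.18 and -0.062. In these pairs without hormone, ICI or G15, 0 of 4 ID genes reached 2-fold lower, beside 0.0152% of all genes on ethanol minus untreated and 0% on BSA minus untreated. All these comparisons share arrays.

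E2-BSA was set against its carrier and against free estradiol. On E2-BSA minus BSA, ID1 differed by -0.13, ID2 by -0.072, ID3 by -0.092 and ID4 by 0.076, so 0 of 4 were at least 2-fold lower, beside 0.0101% of all genes. On estradiol minus E2-BSA, ID1 differed by -2.06, ID2 by -1.24, ID3 by -0.80 and ID4 by -0.84, and 2 of 4 were past 2-fold beside 0.0152% of all genes. The compounds differ in structure by the attached albumin. Both were given at a stated 1e-06 M for 3 h, but the labels do not say whether the figure for E2-BSA counts the conjugate or the hormone on it, and with 1 array each no interval of the difference can be given.

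**Figure D3:**
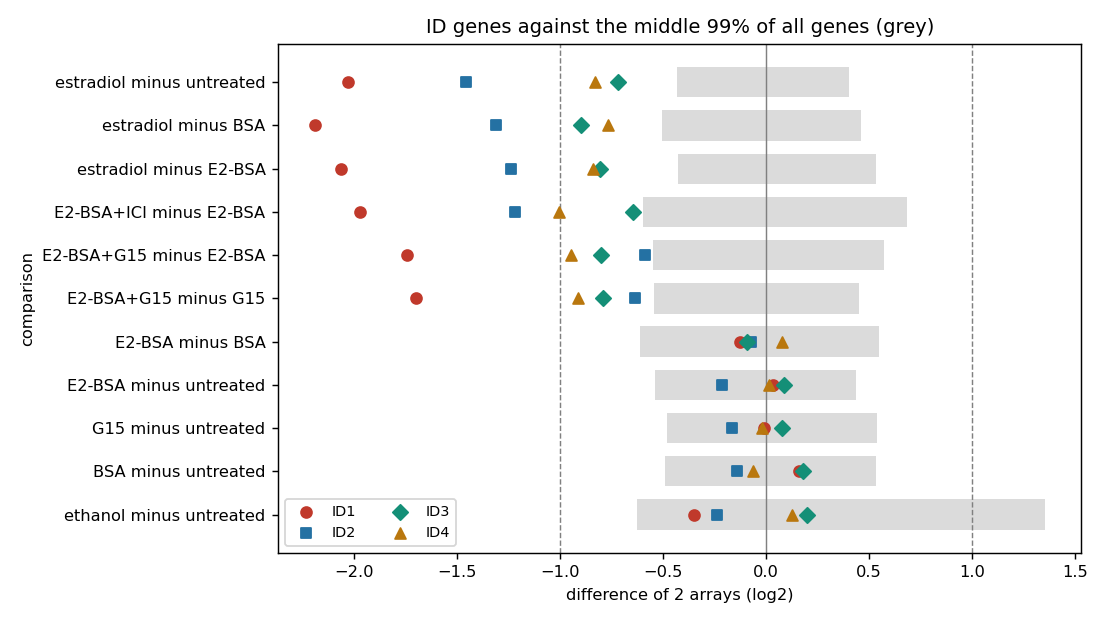
Difference between 2 arrays (x axis, log2) of the 4 ID genes in 11 comparisons (y axis). Grey bars span the middle 99% of all 19775 genes and dashed lines mark 2-fold. ID1 reaches -2.19 on estradiol minus BSA, and the 4 genes lie inside the grey bars where E2-BSA, G15, BSA or ethanol alone is the first array.

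The next comparisons take the arrays of E2-BSA with ICI or G15 added. With ICI added, ID1 was lower by 3.92-fold (-1.97), ID2 by 2.33-fold (-1.22), ID4 by 2.00-fold (-1.003) and ID3 by 1.56-fold (-0.64). At 2-fold, 3 of 4 were lower beside 0.0405% of all genes, and ID4 only just. ID4 was at -0.93 with BSA as comparator, -0.83 after quantile normalization, -0.60 as the median of its probe sets and -2.42 by the one with the largest SD. ICI without E2-BSA was not analysed here, so a change made by ICI itself and a change of the E2-BSA response cannot be told apart.

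With G15 added to E2-BSA, ID1 was lower by 3.34-fold (-1.74), ID4 by 1.92-fold (-0.94), ID3 by 1.74-fold (-0.80) and ID2 differed by -0.58. ID1 alone was past 2-fold by gene mean, beside 0.0303% of all genes, while ID4 stood at -1.65 by its probe set with the largest SD, -1.15 without the one that differed least and -0.58 as their median. On E2-BSA plus G15 minus G15 the values were -1.70 for ID1, -0.63 for ID2, -0.79 for ID3 and -0.91 for ID4, with 1 of 4 past 2-fold beside 0.0101% of all genes. Neither compound alone gave such values: G15 minus untreated was -0.0094 for ID1, -0.17 for ID2, 0.079 for ID3 and -0.019 for ID4, with 0 of 4 at least 2-fold lower beside 0% of all genes, and E2-BSA minus untreated was 0.033, -0.21, 0.087 and 0.014. The combination departed from the sum of its parts, as E2-BSA plus G15 minus E2-BSA minus G15 plus untreated, by -1.73 for ID1, -0.42 for ID2, -0.88 for ID3 and -0.93 for ID4. Over all genes the SD of this sum was 0.218, and ID1 ranked 1, ID4 19, ID3 26 and ID2 622 from the lowest.

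Between the ICI and G15 combinations, ID2 had the largest difference of the 4 gene means. The ICI combination minus the G15 combination gave -0.64 for ID2, -0.23 for ID1, -0.058 for ID4 and 0.15 for ID3. After quantile normalization these were -0.37 for ID2, 0.00 for ID1, 0.12 for ID4 and 0.25 for ID3. That method gives probe sets of equal rank on 2 arrays the same value, so 0.00 for ID1 means equal ranks. By the probe set with the largest SD, without that method, ID4 stood at -0.77 and ID2 at -0.72. With 1 array each, no interval of these differences can be given. The other genes at 2-fold lower are listed for each combination, and RAC3 was in both lists. Against E2-BSA, ICI had 5 such genes beside the ID genes, RAC3 (-2.09), C3orf33 (-1.92), IFIT1 (-1.89), SAMD9 (-1.02) and LINC02893 (-1.01). G15 also had 5, RAC3 (-1.98), KANK4 (-1.22), HOXC13 (-1.07), SOX9 (-1.06) and CCN2 (-1.01). The lists depend on the 2-fold limit on single arrays: with ICI HOXC13 stood at -0.82 and CCN2 at -0.51, and with G15 IFIT1 stood at -0.91.

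Genes around the ID proteins were taken in 12 lists by role. The lists were chosen with earlier results of these data known, so their counts and medians are a description. The partners of the ID proteins, the E proteins TCF3, TCF4 and TCF12, differed on estradiol minus untreated by -0.065, -0.020 and 0.078. Of 28 measured tissue-type basic helix-loop-helix factors, which pair with E proteins, 0 were past 2-fold in either direction. Of all genes, 0.0152% were past 2-fold lower and 0% higher there, so nothing is read from this count. The median of the 28 was -0.025 beside 0.00 over all genes. The lowest was TAL2 (-0.31). The HES, HEY and BHLHE40/41 repressors, 11 genes, had a median of -0.081 with 0 past 2-fold, beside the same shares of all genes. HEY1, a Notch and BMP target, had the largest difference (-0.23), and on E2-BSA plus G15 minus E2-BSA it stood at -0.52.

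Upstream of the ID genes, the ligands, receptors and transducing SMADs had medians near that of all genes on estradiol minus untreated. On estradiol minus untreated the 12 measured BMP ligands had a median of -0.024, the 10 TGF-beta and activin ligands 0.016, the 15 receptors and co-receptors 0.023 and the 6 SMAD transducers 0.0095. Of these lists 0 genes were past 2-fold lower, beside 0.0152% of all genes, and 0 higher, beside 0%. The highest values were TGFBR1, a type I TGF-beta receptor, at 0.33, the activin-type subunit gene INHBE at 0.29 and BMP2 at 0.28. In the same order BSA minus untreated gave 0.36, 0.43 and 0.24, and estradiol minus BSA gave -0.031, -0.14 and 0.038. The lowest on estradiol minus untreated was SMAD9, a BMP-activated SMAD that is also a BMP target, at -0.33. With ICI and with G15 added to E2-BSA, 4 and 5 of 6 SMAD transducers were below 0, beside 46.8% and 51.7% of all genes. Their median was -0.040 and -0.11, and by the probe sets with the largest SD it was -0.30 and -0.28. Taking the probe set that varied most over these same arrays favours larger differences. No median of all genes by that choice is given here. With BSA in place of E2-BSA the median of the gene means was 0.021 and 0.023.

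The other targets of BMP signalling had a lower median. Of 16 BMP target genes other than ID, 14 were below 0 on estradiol minus untreated with a median of -0.18, beside 49.4% of all genes below 0. The list was chosen with earlier results of these data known, so nothing is read from this share. Taking for each gene the probe set with the largest SD gave a median of -0.37, but that choice again favours larger differences. By gene mean none of the 16 was past 2-fold, beside 0.0152% of all genes lower and 0% higher. At 1.5-fold, 2 were lower, the homeobox gene DLX3 (-0.65) and SMAD7 (-0.61), beside 0.091% of all genes. DLX2, of the same homeobox family, stood at -0.50, BAMBI, a decoy receptor for BMP, at -0.38, and SMAD6, the BMP-selective inhibitory SMAD, at -0.33. On E2-BSA plus ICI minus E2-BSA the list median was -0.25, and -0.40 with the probe sets of largest SD. There 12 of 16 were below 0, beside 46.8% of all genes, led by SMAD7 (-0.88), DLX3 (-0.76) and DLX2 (-0.68). On E2-BSA plus G15 minus E2-BSA the list median was -0.15, and -0.43 with the probe sets of largest SD. There 12 of 16 were below 0, beside 51.7% of all genes, led by SMAD7 (-0.75) and BAMBI (-0.62). On E2-BSA minus BSA the median was -0.018 with 8 of 16 below 0, beside 48.6% of all genes. On BSA minus untreated it was -0.024 with 10 of 16 below 0, beside 49.4%. Not every BMP target was low: MSX1 stood at 0.13 on estradiol minus untreated and ATOH8 at 0.16 with ICI added to E2-BSA. The 20 measured BMP inhibitors, which share SMAD6, SMAD7 and BAMBI with this list, had a median of 0.00 on estradiol minus untreated. Of these, 7 were below 0 and 8 above, and the rest were exactly 0.

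The TGF-beta targets, which share SMAD7 with the BMP targets, had about the same median as these on estradiol minus untreated. The TGF-beta list median over 13 genes was -0.18 on estradiol minus untreated, -0.12 with ICI added to E2-BSA and -0.11 with G15 added. In this order 8, 9 and 10 genes were below 0, beside 49.4%, 46.8% and 51.7% of all genes. CCN2, a secreted matrix protein, was past 2-fold with G15 added (-1.01) and stood at 0.11 on estradiol minus untreated. The E2-BSA array it was set against was at 0.41. With BSA, G15 or untreated as comparator, E2-BSA plus G15 gave -0.42, -0.54 and -0.68. These genes were the highest of the lists on ethanol minus untreated, with a median of 0.35 and 3 of 13 at least 2-fold higher beside 0.87% of all genes.

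The list of genes that ID proteins are known to hold down differed by comparator. CDKN1A, the cell-cycle inhibitor p21, stood at -0.71 with estradiol, -0.51 with E2-BSA plus ICI and -0.64 with E2-BSA plus G15, against 0.00 with E2-BSA, 0.25 with G15, 0.13 with BSA, 1.26 with ethanol and -0.061 in untreated cells. Its 3 lowest arrays were those of the ID genes. Of the 6 genes of the list, 5 were below 0 on estradiol minus untreated and with ICI or with G15 added to E2-BSA, with medians of -0.18, -0.28 and -0.18, beside 49.4%, 46.8% and 51.7% of all genes below 0. With BSA as comparator for the same 3 arrays, 2, 3 and 4 of 6 were below 0, with medians of 0.021, -0.029 and -0.034. Of all genes, 48.7%, 46.1% and 51.2% were below 0 there. Of 8 transcription factors known to act on ID genes, the immediate early factor EGR1 had the largest difference on estradiol minus untreated (0.78) and with ICI added to E2-BSA (0.79). With G15 added it stood at 0.31, below KLF17 at 0.47, and EGR1 reached 1.01 on E2-BSA plus ICI minus untreated, where 0.0303% of all genes were at least 2-fold higher. EGR1 was highest with ethanol, at 1.38, and ID1 stood at -0.34 there. ATF3, a stress factor that represses ID1 in some epithelial cells, stood at -0.054, -0.0093 and -0.20 with estradiol, with ICI on E2-BSA and with G15 on E2-BSA, and at 1.96 with ethanol.

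**Figure D4:**
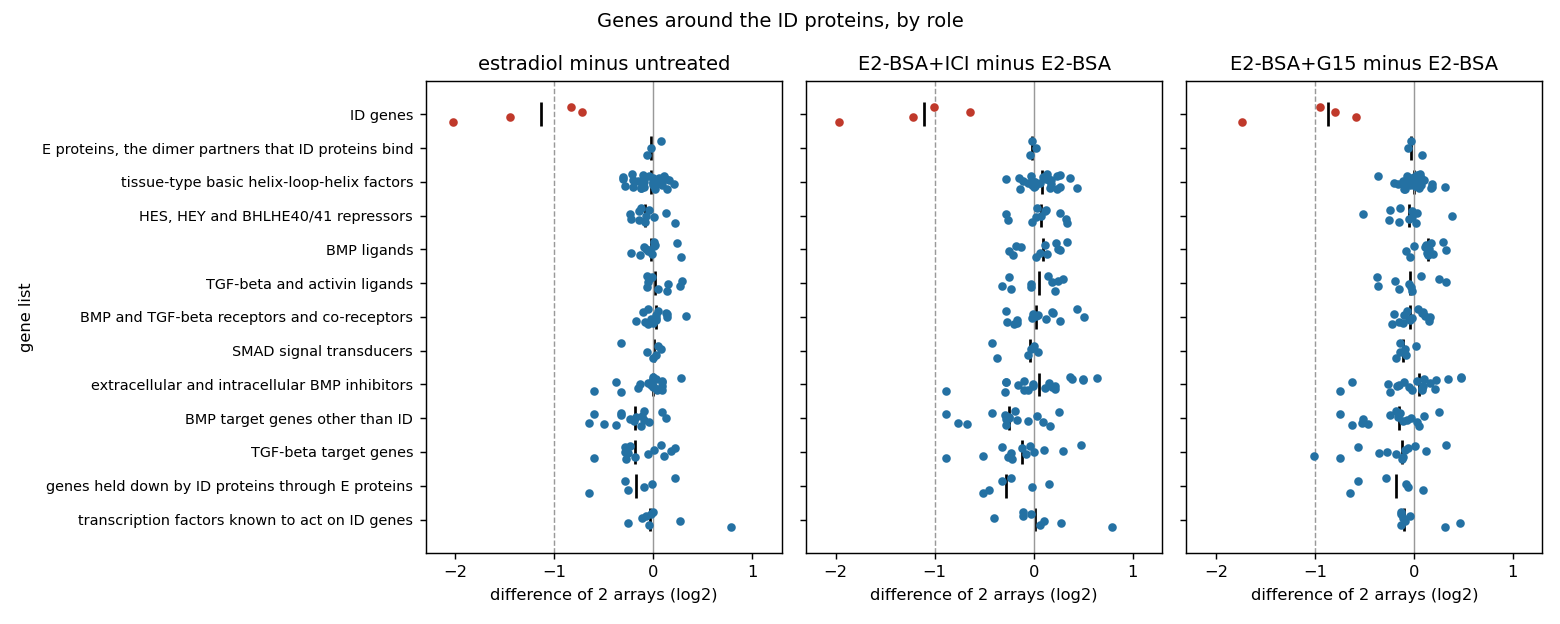
Difference between 2 arrays (x axis, log2) of each measured gene (points) in the ID family and 12 lists by role (y axis) for 3 comparisons; black bars are medians and the dashed line marks 2-fold lower. The ID genes have medians of -1.14, -1.11 and -0.87 from left to right, and the BMP targets other than ID -0.18, -0.25 and -0.15.

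The genes whose values over the 8 arrays were most like those of ID1 were sought among 4259 genes with a range of at least 0.5. The 10 with the highest Pearson r were EDN2 (0.969), ID2 (0.958), ID3 (0.957), ID4 (0.956), DLX3 (0.956), GRHL3 (0.953), DLX1 (0.930), SMAD7 (0.926), SMAD6 (0.925) and the locus LOC730101 (0.912). The other 3 ID genes, 2 inhibitory SMADs and 2 DLX genes were thus among the 10. Of the 10, 6 were kept without the ethanol array, EDN2, ID2, ID3, ID4, DLX3 and SMAD7. With Spearman's rho 4 were kept, EDN2, DLX3, ID2 and GRHL3. ID3, ID4, DLX1 and the inhibitory SMADs were thus not among the 10 by Spearman's rho. EDN2, which encodes the peptide endothelin 2, stood at -0.55 with estradiol, -0.45 with E2-BSA plus ICI and -0.59 with E2-BSA plus G15, against 0.31 with E2-BSA, 0.086 with G15, 0.38 with BSA, 0.00 with ethanol and 0.23 in untreated cells. GRHL3, an epithelial transcription factor, ran from -0.56 with E2-BSA plus G15 to 0.25 with BSA. For ID2 the 5 closest were ID1 (0.958), JSRP1 (0.945), DLX3 (0.918), IFIT1 (0.916) and ID4 (0.915). For ID3 they were HOXC13 (0.983), DLX1 (0.973), ID4 (0.968), SMAD7 (0.963) and ID1 (0.957), and for ID4 they were ID3 (0.968), HOXC13 (0.967), SMAD7 (0.967), ID1 (0.956) and F3, the tissue factor gene (0.948). Between the 4 ID genes r lay between 0.887 (ID2 and ID3) and 0.968 (ID3 and ID4). These coefficients describe 8 arrays of 1 cell line.

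**Figure D5:**
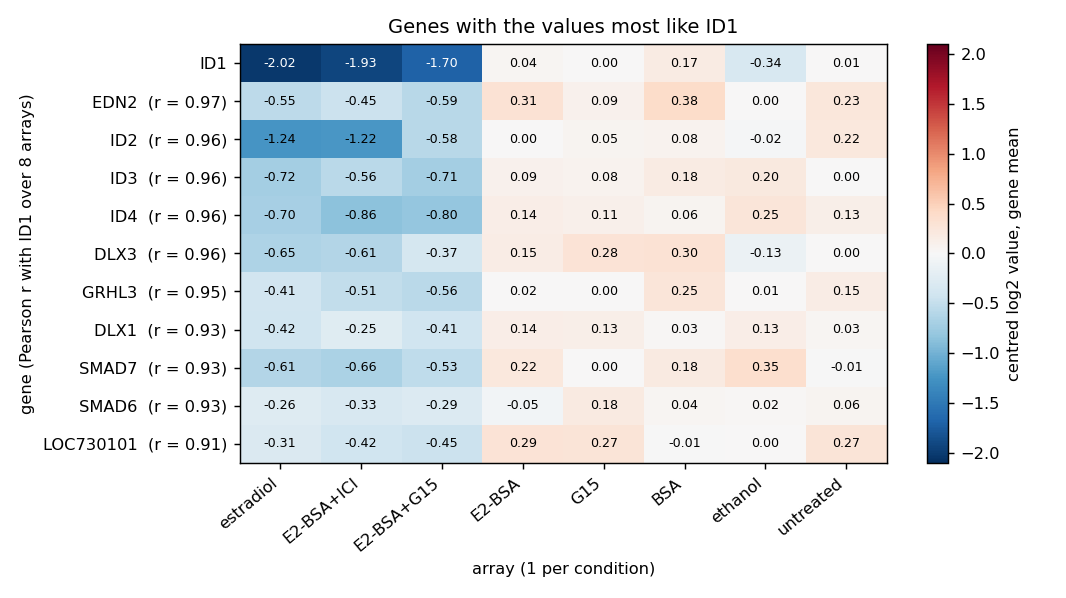
Centred log2 value of the gene mean (colour and number) of ID1 and of the 10 genes with the highest Pearson r to it (rows) on each of the 8 arrays (columns, 1 array per condition). The 3 columns at the left are below 0 in every row, from -2.02 for ID1 with estradiol to -0.25 for DLX1 with E2-BSA+ICI.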

How the data were processed

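Transcript levels were measured on 8 biotin-labelled Affymetrix arrays of total RNA, per the labels. The authors' deposited values were read as log2 values. How probes were summarized and normalized, and with which software, no source used here states. They lie between -2.27 and 7.85, and no probe set has over 4 of the 8 arrays above 0 or over 4 below, the bound of values centred on a median, so a filter on low values could not be applied. For 48.3% of probe sets the value was exactly 0 on 2 or more arrays. Differences of exactly 0 therefore occur, and they count as neither below nor above 0. With base e all folds would be larger.

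Probe sets were named from the platform annotation, with symbols updated through RefSeq gene identifiers for 41037 of 41091 probe sets that name 1 gene. Control probe sets (62) were left out. Gene values are means of such probe sets. A difference is the first array minus the second, and 2-fold means a log2 difference of at least 1 in size. There is no replicate, so no test was made, and the number of arrays limits the precision. The members, lists and comparisons were chosen with earlier results of these data known. Named genes were the ID genes, list members at 2-fold or with the largest differences on estradiol minus untreated, up to 5 genes at 2-fold lower with ID1, and the genes with the highest r; examples beyond this rule were chosen after their values were seen. Alternatives were other probe set summaries, median centring, quantile normalization (limma 3.58.1), other comparators and a 1.5-fold limit. Differences were computed with pandas 2.3.3. The code read back known differences put into simulated arrays. This checks the arithmetic and says nothing of how reliable a difference of 2 single arrays is.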

Additional observations from a re-analysis of the deposited data

How the results depend on the processing

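The sign of the ID genes on estradiol minus untreated and with ICI or G15 added to E2-BSA was negative under every alternative run that could change a value. A value is called shifted where it moved by more than 0.166, the SD over genes of BSA minus untreated. Median centring could change nothing, since every array already had a median of 0. Quantile normalization shifted ID1 to -1.73 on estradiol minus untreated, to -1.35 with ICI and to -1.35 with G15 added to E2-BSA, and its departure from the sum to -1.33. It shifted ID2 with ICI to -1.01, ID4 with ICI to -0.83 and ID3 on estradiol minus untreated to -0.91. With ethanol as comparator, ID1 stood at -1.68 (estradiol), -1.59 (E2-BSA plus ICI), -1.36 (E2-BSA plus G15), 0.38 (E2-BSA) and 0.34 (G15). ID2 stood at -1.22 (estradiol) and 0.070 (G15), ID3 at -0.92 (estradiol) and -0.12 (G15), and ID4 at -0.11 (E2-BSA). With BSA as comparator ID3 stood at -0.90 (estradiol) and -0.10 (G15). With untreated as comparator ID2 stood at -1.44 (ICI combination) and -0.80 (G15 combination), and ID3 at 0.087 (E2-BSA). With the probe set shared with ID2B, added after seeing the data, ID2 on estradiol minus untreated was -1.22 and on G15 minus untreated 0.018.

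ID4 depends on its probe sets. The probe set with the largest SD gave -1.11 on estradiol minus untreated, -2.42 with ICI added, -1.65 with G15 added, 0.47 on E2-BSA minus BSA, -0.39 on G15 minus untreated and a departure of -1.26. The median of probe sets gave -1.09, -0.60 with ICI, -0.58 with G15, -0.19 on G15 minus untreated and a departure of -0.39. Without probe sets of the _x_at, _s_at and _a_at kinds, ID4 with ICI was -1.38; ID1, ID2 and ID3 have only such probe sets. Without the probe set that differed least, added after seeing the data, ID4 was -1.25 with ICI and -1.15 with G15. The ID3 departure was -0.70 with BSA in place of untreated.

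The number of genes at 2-fold lower on estradiol minus untreated was 3, and it was 18 at 1.5-fold, 6 over single probe sets and 16 after quantile normalization. In the same order it was 2, 131, 27 and 5 on E2-BSA minus BSA, 0, 33, 27 and 15 on G15 minus untreated, 8, 112, 65 and 13 with ICI added to E2-BSA, and 6, 71, 28 and 18 with G15 added. With the probe set of largest SD, a choice that favours larger differences, the median of the BMP targets was -0.37 on estradiol minus untreated, -0.40 with ICI and -0.43 with G15 added. Of the 10 genes most like ID1, 4 were kept with Spearman's rho and 6 without the ethanol array. Among genes with a range of at least 1, 3 were kept, ID2, ID4 and SMAD7. Only these 3 of the 10 had such a range, so no more could be kept. The cause of the other shifts was not tested. No paired analysis was possible because each condition has 1 array.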
